A study of Homo sapiens with 4 samples.

Results

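The 6 mRNAs described here are those of the human mitochondrial genome that encode subunits of respiratory complexes III, IV and V: MT-CYB, MT-CO1, MT-CO2, MT-CO3, MT-ATP6 and MT-ATP8. They were taken by gene symbol, and the rule matched 6 of the 48162 genes in the deposited expression table. The cells were MDA-MB-231, an established line from a triple-negative human breast cancer, and RNA was sequenced after capture on oligo-dT beads. The treated cells received MGH-CP1, named in the series title as an inhibitor of TEAD palmitoylation, at 10 µM for 24 h (2 libraries), and the control cells received vehicle for 24 h (2 libraries). No genetic change separated the groups, a single cell line was used, and the labels do not say whether the 2 libraries of a group came from separate cultures. Each limma p-value is therefore set against how far apart the libraries of a group lay, and that distance may be technical. limma also draws the spread of each gene towards that of all genes tested. Where the libraries of a gene lay unusually far apart, the spread used is smaller than its own.

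Mitochondrial DNA is transcribed from both strands into long polycistronic RNAs, which are cut, largely at the tRNAs that lie between the genes, into mRNAs that then receive short poly(A) tails. Complex III passes electrons from ubiquinol to cytochrome c, complex IV passes them on to oxygen, and complex V, the ATP synthase, uses the resulting proton gradient to make ATP. In each complex the mitochondrially encoded subunits sit in the inner membrane and are assembled with a larger number of subunits imported from the cytosol.

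The gene ends are shown because the libraries were selected through poly(A), and in MT-CYB and MT-CO3 the tail also completes the stop codon. A printed end is that of the annotated gene and need not be where the tail is added. The end of MT-ATP8, at 8572, lies within MT-ATP6 (8527 to 9207) and is not the end of an mRNA. Each line gives the last 30 bases of a gene, 5′ to 3′, with the stop letters that the gene itself holds in capitals.
MT-CYB: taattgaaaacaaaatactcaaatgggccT
MT-CO1: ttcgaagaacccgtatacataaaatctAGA
MT-CO2: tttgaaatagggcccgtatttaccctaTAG
MT-CO3: tgtatgtctccatctattgatgagggtctT
MT-ATP6: gtaagcctctacctgcacgacaacacaTAA
MT-ATP8: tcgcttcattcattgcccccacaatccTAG
The letters are those of GENCODE 29 (GRCh38), matched by gene ID. All 6 genes lie on the plus strand of chromosome MT in the table (hg19), are protein-coding without introns, and begin with ATG. The G content of the sense strand was low, from 6.28% in MT-ATP8 to 16.2% in MT-CO1, and GC content ran from 39.6% to 46.6%.

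MT-ATP8 is shown whole because its reading frame runs into that of MT-ATP6, and both proteins are made from 1 shared mRNA. Counts of mRNAs in this report are by gene, so MT-ATP8 and MT-ATP6 are counted separately although they are not separate molecules. The 46 capital bases, positions 8527 to 8572 of chromosome MT, belong to both genes.
MT-ATP8: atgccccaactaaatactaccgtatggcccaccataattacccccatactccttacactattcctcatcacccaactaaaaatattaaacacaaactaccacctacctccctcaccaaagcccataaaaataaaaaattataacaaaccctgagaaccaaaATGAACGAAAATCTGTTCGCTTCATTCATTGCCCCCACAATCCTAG
They make up 22.2% of the 207 bases of MT-ATP8 and 6.75% of the 681 bases of MT-ATP6, and leave MT-ATP8 with 161 bases of its own. MT-ATP6 and MT-CO3 share 1 base, at position 9207.

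Counted by gene, 5 of the 6 mRNAs rose with MGH-CP1 and none fell, and MT-ATP8 did not pass the test in limma. At an unadjusted p under 0.05, 6 were higher and 0 lower, and with voom on recovered reads 6 were higher and 0 lower. Across all 11790 genes tested 45.0% were called, 20.0% higher and 25.1% lower, so rises were common. A rise of at least 1 on the log2(FPKM + 1) scale was not, at 0.992% of the genes tested, and all 5 called mRNAs had one. The added 1 shrinks the fold changes of genes at low FPKM, but hardly those of these 5. The share may therefore leave out rises of like size in genes at low FPKM. All 6 mRNAs had both MGH-CP1 values above both vehicle values, which held for 34.7% of the genes tested. Their median log2 fold change was 1.35, against -0.02 over all genes tested. Levels are FPKM, that is, fragments per kilobase of gene, scaled to the reads of the library. Means are given ± SD (n = 2 libraries in each group). Fold changes are log2 of MGH-CP1 over vehicle ± SE on the log2(FPKM + 1) scale. A gene counted as called, and as having risen or fallen, where limma's p, adjusted by Benjamini-Hochberg over all genes tested, was under 0.05.

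**Figure D1:**
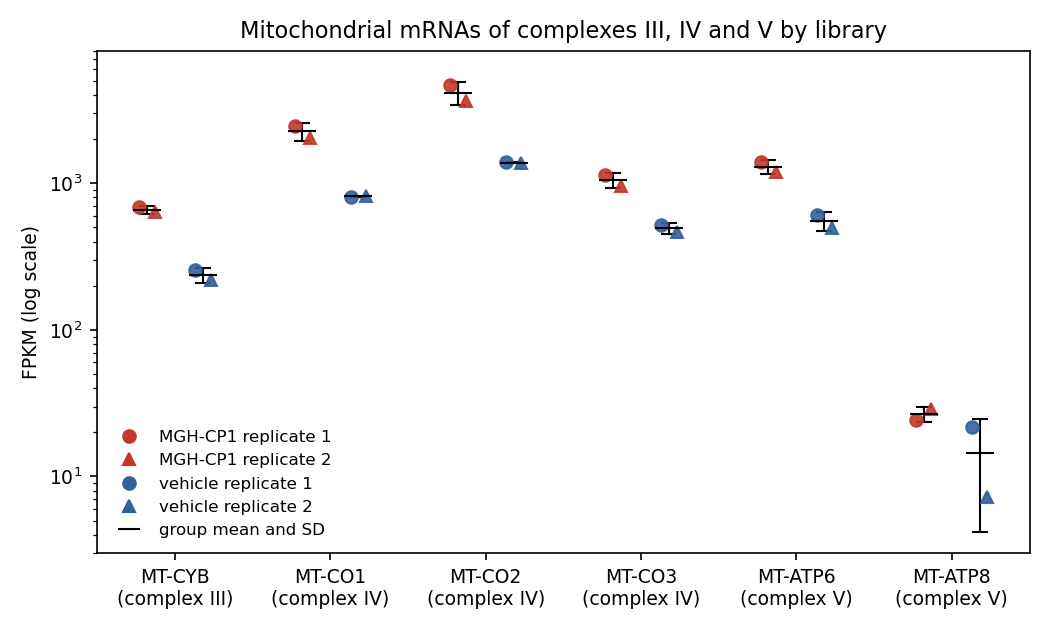
Levels of the 6 mitochondrial mRNAs in FPKM on a log axis, with 1 point for each of the 4 libraries and bars for the group mean and SD (n = 2 libraries per group). MGH-CP1 points lie above vehicle points for all 6, with little room between them for MT-ATP8, where vehicle replicate 2 is at 7.19 FPKM.

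In complex III, MT-CYB (ENSG00000198727, chromosome MT, 14747 to 15887) encodes cytochrome b, the haem-bearing core of the complex and its only subunit made in the mitochondrion. It stood at 686 and 632 FPKM in the MGH-CP1 libraries, against 256 and 218 FPKM in the vehicle libraries. The groups did not overlap, and the 2 libraries of a group lay close together. The means were 659 ± 38.5 FPKM with MGH-CP1 and 237 ± 26.7 FPKM with vehicle. The log2 fold change was 1.48 ± 0.09 (limma, adjusted p = 4.53e-05).

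In complex IV all 3 mitochondrially encoded subunits rose. MT-CO1 (ENSG00000198804, 5904 to 7445) encodes the catalytic subunit, where oxygen is reduced. It stood at 2473 and 2032 FPKM with MGH-CP1, against 809 and 814 FPKM with vehicle. The vehicle libraries were nearly equal and the MGH-CP1 libraries lay further apart, but the gap between groups was larger than either spread. The log2 fold change was 1.46 ± 0.10 (limma, adjusted p = 7.33e-05).

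MT-CO2 (ENSG00000198712, 7586 to 8269) encodes the subunit that takes electrons from cytochrome c through a copper centre. Its level was 4668 and 3637 FPKM with MGH-CP1, against 1391 and 1367 FPKM with vehicle. It was the gene with the highest FPKM of the whole table in both MGH-CP1 libraries, and ranked 9 and 8 in the vehicle libraries. The log2 fold change of 1.58 ± 0.13 was the largest of the 6 (limma, adjusted p = 0.000109), and ranked 23 among the 2355 genes that rose. That rank is on the log2(FPKM + 1) scale, which shrinks the fold changes of genes at low FPKM. Such genes can rank below MT-CO2 with a larger ratio of means, as CALHM3 did (6.18 times, against 3.01 times for MT-CO2).

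MT-CO3 (ENSG00000198938, 9207 to 9990) encodes the remaining core subunit of complex IV. It stood at 1134 and 958 FPKM with MGH-CP1, against 522 and 465 FPKM with vehicle. The groups did not overlap, and the log2 fold change of 1.08 ± 0.10 was the smallest among the 5 that rose (limma, adjusted p = 0.000215).

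In complex V, MT-ATP6 (ENSG00000198899, 8527 to 9207) encodes the subunit that forms the proton path of the ATP synthase. It stood at 1399 and 1192 FPKM with MGH-CP1, against 608 and 495 FPKM with vehicle. The groups did not overlap, and the log2 fold change was 1.23 ± 0.12 (limma, adjusted p = 0.000246).

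MT-ATP8 (ENSG00000228253, 8366 to 8572) encodes a small membrane subunit of the ATP synthase. It stood at 24.3 and 28.8 FPKM with MGH-CP1, against 21.7 and 7.19 FPKM with vehicle. Vehicle replicate 1 lay close to the MGH-CP1 libraries, and vehicle replicate 2 lay far below the other 3. The log2 difference of 1.01 ± 0.40 had a 95% interval of 0.07 to 1.95 and did not pass (limma, adjusted p = 0.0757). Its size rested on vehicle: it was 1.74 without vehicle replicate 1 and 0.27 without vehicle replicate 2. With a lone vehicle library, the spread of vehicle is not measured. On recovered reads with voom it was 1.03 (adjusted p = 0.0264).

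The values of MT-ATP8 rested on few reads. Whole reads could be recovered from FPKM and gene length, and MT-ATP8 had 87 and 101 reads with MGH-CP1 and 83 and 25 reads with vehicle. Exact 95% Poisson intervals, which cover counting error only, were 69.7 to 107 and 82.3 to 123 reads with MGH-CP1, and 66.1 to 103 and 16.2 to 36.9 reads with vehicle. The other 5 mRNAs had between 4176 and 65955 reads per library. Per length, MT-ATP6 was 57.6 and 41.4 times MT-ATP8 with MGH-CP1 and 28.1 and 68.9 times MT-ATP8 with vehicle. How reads in bases shared by 2 genes were counted is not given in the sources used here, so the level of MT-ATP8 is uncertain. MT-ATP8 and MT-ATP6 share an mRNA, so their ratio does not compare separate molecules.

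The order of levels was the same in all 4 libraries: MT-CO2, MT-CO1, MT-ATP6, MT-CO3, MT-CYB and MT-ATP8. Of the neighbours in that order, MT-ATP6 and MT-CO3 overlapped in the vehicle libraries, and no other pair overlapped within a group. These levels are per length.

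Together the 6 mRNAs took 0.964% and 0.791% of all reads in the MGH-CP1 libraries (95% Wilson intervals 0.959% to 0.968% and 0.787% to 0.795%). In the vehicle libraries they took 0.332% and 0.314% (0.329% to 0.335% and 0.312% to 0.317%). MGH-CP1 replicate 1 was above replicate 2 for the 5 mRNAs that rose, by 1.09 times for MT-CYB to 1.28 times for MT-CO2. Over 9984 genes with at least 100 reads in both MGH-CP1 libraries, the middle 90% of this replicate ratio ran from 0.863 to 1.16, so 4 of the 5 lay above it. Between the vehicle libraries the ratio was 0.995 for MT-CO1 and 1.02 for MT-CO2, 1.23 for MT-ATP6 and 3.02 for MT-ATP8, against 0.829 to 1.20 over 10088 genes. FPKM is relative to the reads of a library, so more of an mRNA and less of the other RNA cannot be told apart. In bulk RNA, a change in every cell and a change in some of the cells cannot be told apart either.

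The 5 rises differed in size, and so did ratios between the mRNAs of a library. Per length, MT-CO2 was 4.12 and 3.80 times MT-CO3 with MGH-CP1, against 2.66 and 2.94 times with vehicle. MT-CO1 was 2.18 and 2.12 times MT-CO3 with MGH-CP1, against 1.55 and 1.75 times with vehicle. Both complex IV ratios were higher in both MGH-CP1 libraries. MT-CYB was 0.277 and 0.311 times MT-CO1 with MGH-CP1 and 0.316 and 0.268 times with vehicle, and these values overlapped. Of 13 such ratios computed here and below, 11 did not overlap between groups. The 13 reuse the same mRNAs, so they are not separate results. An exact two-sided permutation test of 2 libraries against 2 cannot give a p below 0.333 (0.394 adjusted over the 13), so none could pass.

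The share of each mRNA in the mitochondrial pool, taken as the summed FPKM of all 13 mitochondrial mRNAs, was higher in both MGH-CP1 libraries for MT-CYB, MT-CO1 and MT-CO2. MT-CO2 made up 23.3% and 21.5% of the pool with MGH-CP1, against 16.1% and 17.0% with vehicle. MT-CO1 made up 12.3% and 12.0% with MGH-CP1, against 9.36% and 10.1% with vehicle. MT-CYB made up 3.42% and 3.73% with MGH-CP1, against 2.96% and 2.71% with vehicle. MT-CO3 was lower in both MGH-CP1 libraries by a small margin, at 5.657% and 5.660%, against 6.04% and 5.78% with vehicle. MT-ATP6 lay between 6.16% and 7.05% in the 4 libraries, and its groups overlapped. The 6 mRNAs together held 51.8% and 50.1% of the pool with MGH-CP1 and 41.7% and 41.8% with vehicle. MT-ND3, a complex I mRNA, accounted for 9.68% and 9.37% with MGH-CP1 and 28.2% and 26.8% with vehicle. Over the 12 mRNAs other than MT-ND3, the 6 held 57.3% and 55.3% with MGH-CP1 and 58.2% and 57.2% with vehicle. In that pool the shares of MT-CYB and MT-CO1 overlapped between the groups, at 3.79% and 4.12% with MGH-CP1 and 4.12% and 3.70% with vehicle for MT-CYB, and at 13.7% and 13.2% with MGH-CP1 and 13.04% and 13.8% with vehicle for MT-CO1. MT-CO2 was still higher in both MGH-CP1 libraries, at 25.8% and 23.7%, against 22.4% and 23.2% with vehicle. MT-CO3 was lower, at 6.26% and 6.25% with MGH-CP1 and 8.41% and 7.90% with vehicle, and so was MT-ATP6, at 7.73% and 7.78% with MGH-CP1 and 9.81% and 8.41% with vehicle. Whether the groups overlapped thus depended on MT-ND3 for MT-CYB, MT-CO1 and MT-ATP6. For MT-CO2, higher, and MT-CO3, lower, it did not.

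**Figure D2:**
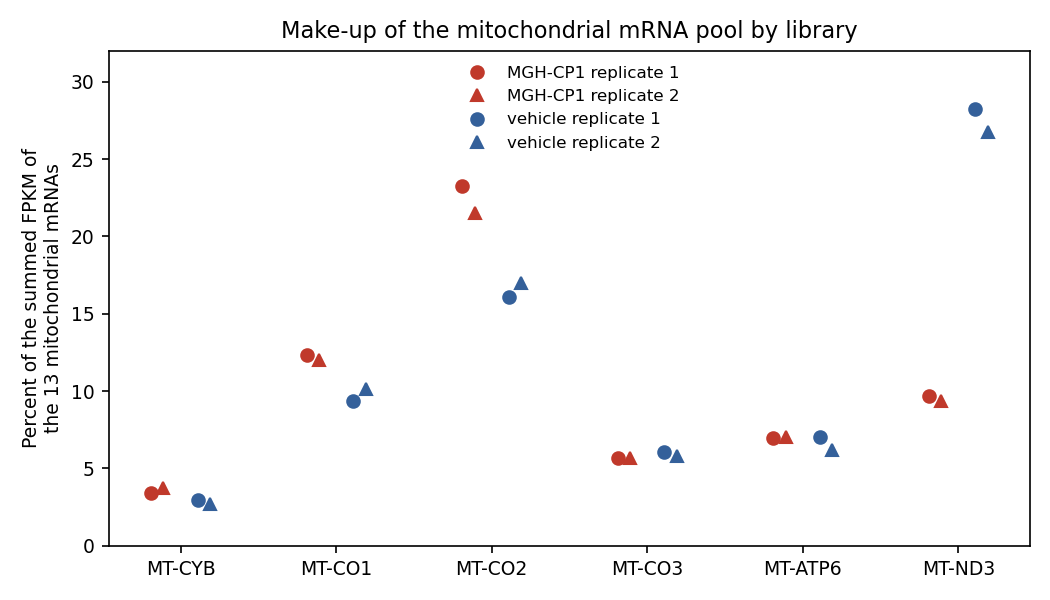
Percent of the summed FPKM of the 13 mitochondrial mRNAs taken by 5 of the 6 mRNAs and by MT-ND3, 1 point per library. MT-CYB, MT-CO1 and MT-CO2 lie higher with MGH-CP1, MT-CO3 lies slightly lower, within 5.66% to 6.04% over the 4 libraries, and MT-ND3 lies at 9.37% to 9.68% with MGH-CP1 and 26.8% to 28.2% with vehicle. MT-ATP8, at 0.251% or less, is not drawn.

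Along the genome, the log2 fold changes of MT-CO2, MT-ATP8, MT-ATP6 and MT-CO3, which follow each other, were 1.58, 1.01, 1.23 and 1.08, with MT-ATP8 not called. The next mRNA, MT-ND3, fell by 0.39 on the log2 scale (limma, adjusted p = 0.0345), a call lost with no filter, without a mean-variance trend, without MGH-CP1 replicate 2 and without vehicle replicate 1. MT-CYB, at the far end of the gene order, had 1.48. Of the 7 complex I mRNAs 6 rose, with a median of 1.56 over the 7 and a range of -0.39 to 2.09. The 95% intervals of the 5 called mRNAs of complexes III to V ran from 0.84 at the lowest to 1.87 at the highest.

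**Figure D3:**
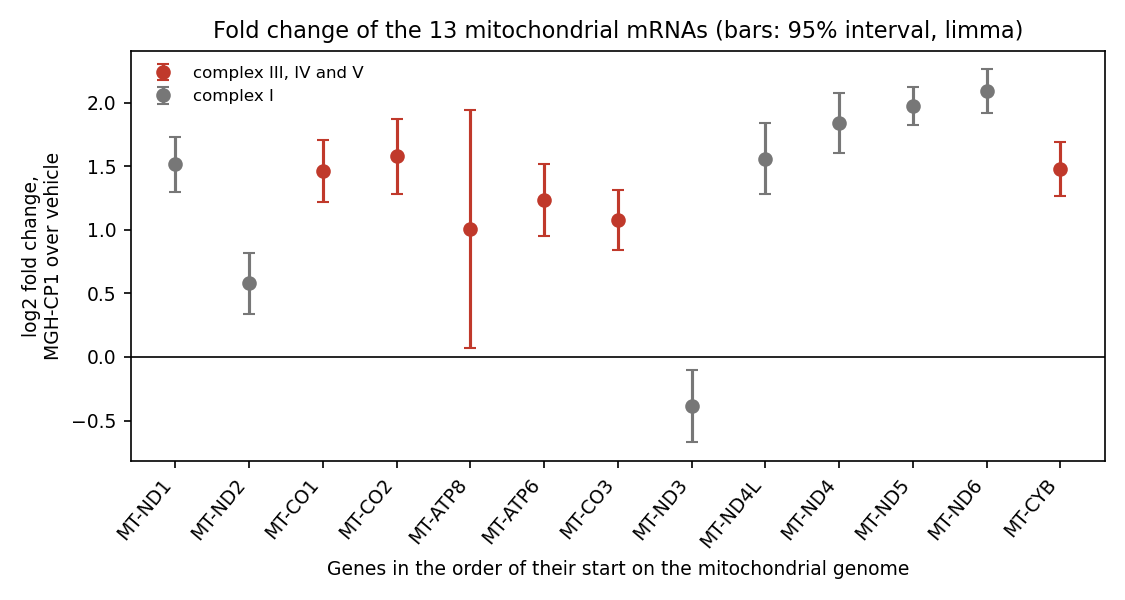
Log2 fold changes of MGH-CP1 over vehicle for the 13 mitochondrial mRNAs in gene order, with 95% intervals from limma. The mRNAs of complexes III, IV and V lie between 1.01 and 1.58, those of complex I between -0.39 and 2.09, and the interval of MT-ATP8 is the widest.

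Near-identical copies of mitochondrial genes lie in the nuclear genome, and reads can be placed on either. The table held 181 pseudogene rows that are copies of the 6 genes, 17 found by symbol and 164 by gene ID after the table had been seen. Only 21 had a read in any library and 3 passed the filter on low values. All 3 belong to a stretch of chromosome 1 (hg19) that copies these genes in order. MTATP6P1 (ENSG00000248527, 569076 to 569756) differs from MT-ATP6 at 10 of 681 bases, an identity of 98.5%. The first 90 bases of both are shown to make this likeness visible, with the base that differs in capitals.
MT-ATP6: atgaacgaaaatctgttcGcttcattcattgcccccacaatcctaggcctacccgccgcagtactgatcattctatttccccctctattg
MTATP6P1: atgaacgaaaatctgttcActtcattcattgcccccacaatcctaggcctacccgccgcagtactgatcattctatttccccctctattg
The longest stretch without a difference was 141 bases in MTATP6P1 and 245 bases in MTCO1P12, a copy of MT-CO1 with an identity of 98.6%. The labels' protocols give a preferred fragment length of 150 to 200 bases.

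MTATP6P1 stood at 148 and 130 FPKM with MGH-CP1, against 71.8 and 43.4 FPKM with vehicle. It rose by 1.30 ± 0.20 on the log2 scale (limma, adjusted p = 0.00201). Its reads came to 10.6% and 10.9% of those of MT-ATP6 with MGH-CP1 and to 11.8% and 8.76% with vehicle. MTCO1P12 (ENSG00000237973, 566454 to 567996), listed in the table under another symbol, stood at 23.0 and 21.1 FPKM with MGH-CP1, against 13.95 and 5.56 FPKM with vehicle. Its log2 fold change was 1.22 ± 0.32 (limma, adjusted p = 0.0190), and the call was lost without MGH-CP1 replicate 1 (log2 fold change 1.16; limma, adjusted p = 0.0510) and with no filter (limma, adjusted p = 0.158). Without vehicle replicate 2 the value was 0.62.

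MTCO2P12, a copy of MT-CO2 at 568137 to 568818, had 27 and 23 reads with MGH-CP1 and 37 and 3 reads with vehicle. The groups overlapped, and the log2 difference of 0.49 did not pass (limma, adjusted p = 0.407). It was 1.31 without vehicle replicate 1 and -0.33 without vehicle replicate 2. Vehicle replicate 2 was the lowest of the 4 libraries for all 3 copies and for MT-ATP8. It was also the lowest for MT-CYB, MT-CO2, MT-CO3 and MT-ATP6, but not for MT-CO1. Adding the reads of all copies to the mitochondrial rows left the log2 fold changes at 1.46 for MT-CO1, 1.58 for MT-CO2 and 1.24 for MT-ATP6, and no call changed.

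**Figure D4:**
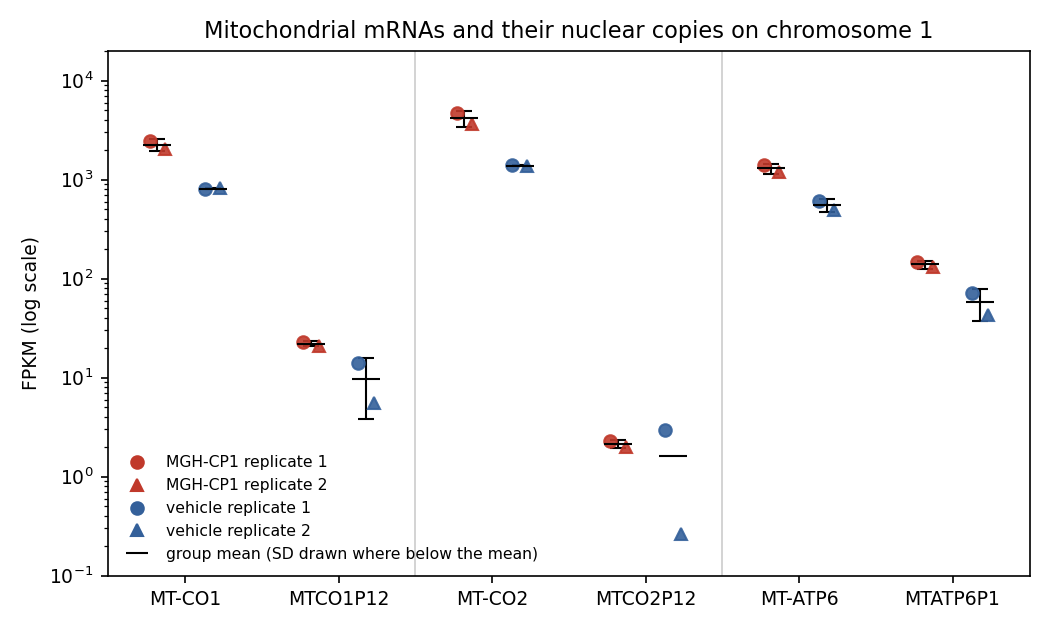
Levels in FPKM (log axis) of 3 mitochondrial mRNAs and of their nuclear copies on chromosome 1, 1 point per library with the group mean, and the SD where it is below the mean. Copies lie below their mitochondrial genes, and vehicle replicate 2 is the lowest point of each copy.

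Nuclear genes for subunits of the same complexes did not share the size of these rises. Of 42 listed genes 36 were tested, 2 rose, 6 fell and 28 were not called, with a median log2 fold change of 0.02. Over all genes tested, 20.0% rose and 25.1% fell. In complex III 1 of 8 rose and 2 fell, in complex IV 1 of 11 rose and none fell, and in complex V none of 17 rose and 4 fell (limma). At an unadjusted p under 0.05, 3 of the 36 were higher and 7 lower, with 1 of them lower in complex IV and none higher in complex V. With voom 3 were higher and 7 lower. These counts depended on single libraries: 14 rose without vehicle replicate 1, 13 fell without vehicle replicate 2, and none passed in either direction without MGH-CP1 replicate 2.

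In complex III, UQCRC2, a core subunit, was higher at 31.7 ± 1.72 FPKM with MGH-CP1 and 25.9 ± 0.259 FPKM with vehicle. UQCRFS1, the Rieske iron-sulfur protein, was lower at 35.6 ± 2.29 FPKM with MGH-CP1 and 45.9 ± 4.48 FPKM with vehicle. CYC1, cytochrome c1, was lower at 96.0 ± 2.37 FPKM with MGH-CP1 and 118 ± 7.64 FPKM with vehicle. The complex IV subunit gene COX7A2 was higher at 130 ± 4.79 FPKM with MGH-CP1 and 110 ± 8.46 FPKM with vehicle. In complex V the largest falls were those of ATP5G1, which encodes a ring subunit (log2 fold change -0.32), ATP5F1, which encodes a stalk subunit (-0.22), and ATP5C1, which encodes the central shaft (-0.21). The largest of these 7 changes was that of UQCRFS1 (-0.35), and each of these 7 calls was lost under at least 1 alternative.

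Among the factors that assemble the 3 complexes, those that changed fell. Of 33 listed genes 30 were tested, 11 fell and none rose, with a median log2 fold change of -0.23 (limma), where 25.1% of all genes tested fell. At an unadjusted p under 0.05, 17 were lower and 2 higher, and with voom 11 were lower and 0 higher. Under 6 of the 13 alternatives, 1 or 2 were called higher. For complex IV 8 of 20 fell, for complex III 1 of 6 and for complex V 2 of 4. At 7 of 30, the count was lowest without either MGH-CP1 library among the leave-one-out fits.

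COA4, a complex IV assembly factor, had the largest change, at 26.5 ± 0.248 FPKM with MGH-CP1 and 44.2 ± 4.92 FPKM with vehicle (log2 fold change -0.71 ± 0.08; limma, adjusted p = 0.000497). CMC2 stood at 2.34 ± 0.0917 FPKM with MGH-CP1 and 4.18 ± 0.0616 FPKM with vehicle. COA7, listed under an older symbol, stood at 10.8 ± 0.870 FPKM with MGH-CP1 and 16.6 ± 1.27 FPKM with vehicle. TACO1, an activator of the translation of MT-CO1, fell, at 10.8 ± 0.908 FPKM with MGH-CP1 and 13.7 ± 1.05 FPKM with vehicle (limma, adjusted p = 0.0199). That call was lost with no filter and without MGH-CP1 replicate 2 (limma, highest adjusted p = 0.139).

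LYRM7, which delivers the Rieske protein to complex III, had a log2 fold change of -0.41. ATPAF1 (-0.40) and TMEM70 (-0.30) act in the assembly of complex V. The calls of LYRM7 and TMEM70 were each lost under at least 1 alternative. LYRM7 overlaps HINT1, at 127 FPKM, on the opposite strand, CMC2 overlaps CENPN, COA4 overlaps PAAF1 and ATP5F1 overlaps WDR77, also on the opposite strand, and ATPAF1 overlaps EFCAB14 on the same strand. The use of strand in counting is not given in the sources used here, so these 5 values are uncertain.

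**Figure D5:**
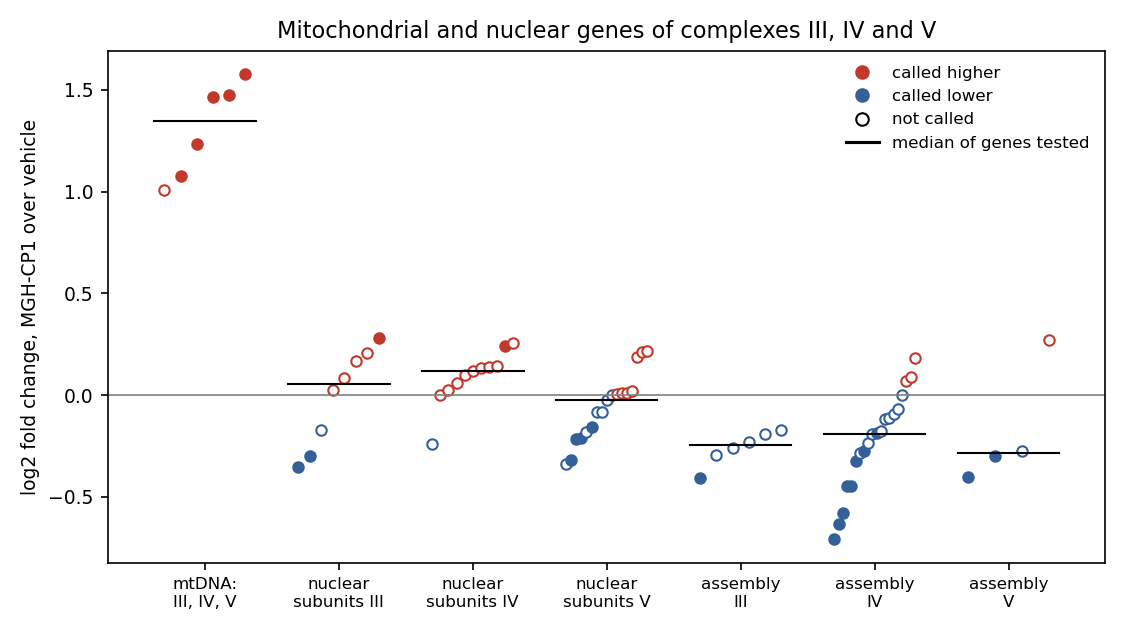
Log2 fold changes of MGH-CP1 over vehicle for the 6 mitochondrial mRNAs, the tested nuclear subunit genes and the tested assembly factors of complexes III, IV and V, 1 point per gene. Filled points were called by limma, lines are medians. The mitochondrial mRNAs lie at 1.01 and above, and the nuclear genes lie between -0.71 and 0.28.

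Set against the nuclear subunit genes of its complex, a mitochondrial mRNA stood higher in both MGH-CP1 libraries. MT-CYB was 18.9 and 17.8 times the median FPKM of the tested nuclear complex III genes with MGH-CP1, against 6.51 and 5.64 times with vehicle. MT-CO1 was 48.7 and 38.3 times the median of the complex IV genes with MGH-CP1, against 14.3 and 17.7 times with vehicle. For MT-ATP6 and complex V genes the values were 49.4 and 45.9 with MGH-CP1, against 20.6 and 20.4 with vehicle. The medians of the nuclear genes themselves overlapped between groups in complexes IV and V, and for complex III were 36.3 and 35.5 FPKM with MGH-CP1, against 39.3 and 38.7 FPKM with vehicle.

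By the fixed measure of likeness, the Euclidean distance between profiles of log2(FPKM + 1) over the 4 libraries after each profile was centred on its own mean, the 5 genes nearest to the median profile of the 6 mRNAs were all outside the mitochondrial genome. They were HID1, at a distance of 0.0949, the pseudogene CD24P4 (0.117), CALHM3 (0.143), ELF3 (0.160) and TJP3 (0.171). HID1 stood at 15.6 and 15.1 FPKM with MGH-CP1, against 6.09 and 5.08 FPKM with vehicle. CALHM3, ELF3 and TJP3 stood at 4.18 FPKM or less, where the added 1 shrinks a fold change. Their means with MGH-CP1 were 6.18, 3.75 and 5.04 times those with vehicle, against 3.01 times for MT-CO2, the largest of the 6. Nearness by this measure is therefore not an equal fold change. Distances of the 6 mRNAs to their own median profile ran from 0.131 for MT-ATP6 and 0.134 for MT-CYB to 0.976 for MT-ATP8. MT-CO1 (0.227), MT-CO3 (0.279), MT-CO2 (0.310) and MT-ATP8 lay further from that profile than any of the 5 named genes.

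Recovered reads summed to 16790645 to 18485701 per library. Of 6 genes expected in MDA-MB-231 cells, VIM, CD44, AXL, CAV1 and MSN stood at 147 FPKM or more and SPARC at 0.453 FPKM or less. Of 6 luminal and epithelial genes, ESR1 and PGR were at or near 0, CDH1 was below 1 FPKM, and EPCAM, ERBB2 and KRT8 were detected, KRT8 at 288 to 299 FPKM. Of 10 markers of immune, endothelial and stromal cells, 9 were matched, and their summed level was 7.41 to 7.60 FPKM with MGH-CP1 and 6.98 to 7.80 FPKM with vehicle. Among 6 RNAs that report on poly(A) selection, 4 were matched. Their summed level, mostly RN7SL1, was 956 to 984 FPKM with MGH-CP1 and 1075 to 1152 FPKM with vehicle, while 2 others rose. RN7SL1 itself fell (log2 fold change -0.22, limma, adjusted p = 0.0465), and RPPH1 was not called. NEAT1 stood at 7.44 and 7.21 FPKM with MGH-CP1 and 2.77 and 3.49 FPKM with vehicle (log2 fold change 1.02, limma, adjusted p = 0.000366). MALAT1 stood at 17.0 and 23.4 FPKM with MGH-CP1 and 12.1 and 12.04 FPKM with vehicle (log2 fold change 0.68, limma, adjusted p = 0.00494). The part of these 4 RNAs in the rise of the mitochondrial mRNAs was not tested.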

How the data were processed

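The authors deposited 1 table of FPKM values for 48162 genes, with 1 column for each of the 4 libraries. The tools named are CASAVA 1.8 and STAR, and the build is hg19, per the submitters' processing notes. Not given in the sources used here are the read counter and whether it used strand.

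Multiplied by gene length, all values above 0 were whole multiples of 1 step per library (within 0.001), which were taken as reads. The comparison used limma 3.58.1 (R 4.3.3) on log2(FPKM + 1) for the 11790 genes averaging 1 FPKM or more, with group as the only term and a mean-variance trend. The fit was tested on simulated data, where large changes were nearly all recovered, small ones were often missed, and false calls were more frequent than the threshold, which bears on calls of small changes. Tables and figures were made with Python 3.11.15. Alternatives changed the pseudocount, filter, trend, scaling, replicate block and libraries used, or used voom.

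Gene sequences were those of GENCODE 29 (GRCh38), matched by gene ID. The positions of the 13 mitochondrial genes were the same in that annotation and in the table, and positions on chromosome 1 are those of the table on hg19. Copies were aligned with Biopython 1.88. The 2 mitochondrial rRNAs were not analysed here.

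The members and lists were chosen with earlier results of these data known. The rule for named genes took the 6 mRNAs, up to 3 called genes with the largest change in each list of nuclear subunits or assembly factors, TACO1, copies of at least 1 FPKM, and the 5 nearest profiles. Other genes were named after their values were seen.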

Additional observations from a re-analysis of the deposited data

How the results depend on the processing

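Under 13 alternatives, MT-CYB, MT-CO1, MT-CO2, MT-CO3 and MT-ATP6 were called higher in each, with log2 fold changes from 0.96 to 1.76 (limma, highest adjusted p = 0.018, for MT-ATP6 with no filter). Leaving out 1 library in turn gave 0.27 to 1.74 for MT-ATP8, 0.62 to 1.81 for MTCO1P12 and -0.33 to 1.31 for MTCO2P12. Among the alternatives that kept all libraries, MT-ATP8 was called only with a filter of 5 FPKM (1.01) and with voom (1.03). MTCO1P12 was not called with no filter (1.22). With no filter, 1568 of all genes, 1 nuclear subunit gene and no assembly factor were called higher, and 6 assembly factors, 0 nuclear subunit genes and 0 complex I mRNAs lower. Without a trend, 1 nuclear subunit gene was called higher, and 2 of them and 0 complex I mRNAs lower. Assembly factors called higher numbered 2 with a filter of 5 FPKM, with median-of-ratios scaling and with mitochondrial reads left out of the scaling, and 1 with the replicate block. Leaving out libraries, nuclear subunit genes called numbered 0 to 14 higher and 0 to 13 lower, and assembly factors 0 to 2 higher and 7 to 14 lower. Complex I mRNAs lower numbered 0 to 1, and all genes called higher 1460 to 2556. Of 14 named nuclear genes, 10 lost their call under at least 1 alternative and none reversed. Of these shifts, the cause was not tested.

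The labels do not say whether replicate numbers pair the libraries. Deviations of same-numbered libraries correlated at 0.05 across 11790 genes, which cannot settle it with so few libraries. With the replicate block, 2453 genes were higher and 3036 lower, and 5 of the 6 mRNAs were higher. Low read numbers limit MT-ATP8 and the copies. A lone library left in a group was assumed to vary like the other group.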
